A study of Mus musculus with 8 samples.

Results

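The striated muscle filament genes described here are 39 isoforms of myosin, troponin, tropomyosin, actin, alpha-actinin, myosin-binding protein C and the M-line myomesins. They were chosen by gene symbol, with earlier results of these data known, and each of the 39 had 1 row among the 22206 rows of the array table. RNA from the left ventricle was hybridised on 1 array per mouse. In the 4 miR-100 mice the heart made extra miR-100, a microRNA: they were Cre-positive and heterozygous for a floxed miR-100 allele (miR100flox/+), bred from the Myh6-Cre strain and miR-100flox/flox mice. The 4 wild type (WT) mice are labelled wildtype, and whether they carried Cre was not given in the sources used here, so Cre and miR-100 cannot be told apart in this comparison. All 8 mice were untreated males aged 8 weeks, of strain C57/BL6J. Cre was driven by the promoter of Myh6, itself 1 of the 39 genes, which is active in heart muscle cells, and the RNA came from whole ventricular tissue. No row was named Mir100 or Mir100hg (0 rows each), so the overexpression was not checked here.

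Striated muscle contracts when thick filaments of myosin pull on thin filaments of actin. Calcium binds to troponin C, and troponin I, troponin T and tropomyosin then uncover the sites on actin to which myosin heads attach. Nearly every one of these proteins comes in several isoforms encoded by separate genes, which differ between heart, slow and fast skeletal muscle and between fetal and adult life. In the mouse ventricle the heavy chain changes around birth to the fast alpha form of Myh6 from the slow beta form of Myh7, and a return of Myh7 and of skeletal actin Acta1 is a known mark of hypertrophy.

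The sequences below show the microRNA that separates the groups and the 3 microRNAs that lie within members of the heavy chain family: the coordinates of miR-208a, miR-208b and miR-499 fall inside Myh6, Myh7 and Myh7b. The sequences are those of RefSeq on GRCm38.p6, and capitals mark the seed, bases 2 to 8, which pairs with target messenger RNAs.
mmu-miR-100-5p: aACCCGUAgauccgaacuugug
mmu-miR-208a-3p (Myh6): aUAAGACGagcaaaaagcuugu
mmu-miR-208b-3p (Myh7): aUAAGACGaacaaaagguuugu
mmu-miR-499-5p (Myh7b): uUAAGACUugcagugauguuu
The seeds of miR-208a and miR-208b are the same, that of miR-499 differs from them in its last base, and the seed of miR-100 is unrelated. No row was named Mir100, and rows for the other 3 microRNAs were not looked for, so no level of these microRNAs is given here.

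Values are the authors' deposited log2 signals. The 8 arrays had column medians between 5.7 and 5.74 and correlated at 0.9876 to 0.9927 over all rows. On the first principal component (21.7% of the variance) the miR-100 arrays scored 8.96 to 30.8 and the WT arrays -38.2 to -3.49, with miR-100 replicate 2 apart at 30.8 from the other miR-100 arrays, at 13.5 or below, and WT replicate 2 apart at -38.2 from the other WT arrays, at -13.0 or above. The table ended at 19.93, a ceiling near which differences can be compressed, and 9 rows reached it on 1 or more arrays. The labels list the mice as separate samples, so each p rests on these 8 arrays and on no other mice. In limma the spread of each row is also drawn toward a value fitted over all rows.

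Ventricular muscle genes were at the top of the array. The 12 isoforms of adult heart muscle had mean log2 signals between 15.79 and 19.80, at percentile 98.6 of all row means or above. In contrast, 11 of the 16 isoforms typical of skeletal muscle had means below 5.7, the median of the table, where signals lie close to the array's background. Of the atrial filament genes, Myl7 and Mybphl were dim in both groups, while Myl4 stood at percentile 67.9. Myl7, the atrial regulatory light chain, had 3.36, 4.48, 3.85 and 3.63 in miR-100 hearts, against 4.21, 4.27, 4.37 and 4.08 in WT hearts, and Mybphl, an atrial relative of myosin-binding protein C, lay between 3.25 and 3.45 in miR-100 hearts and between 3.10 and 3.65 in WT hearts. Signals of different genes come from different probes and are not set against each other here beyond this ranking.

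The filament isoforms of the ventricle showed no difference past the threshold between miR-100 and WT hearts. None of the 39 passed an adjusted p of 0.05 (0 in limma, Benjamini-Hochberg over all rows), where 0.14% of all rows did, and the lowest adjusted p among them was 0.173. At an unadjusted p under 0.05 there were 4 members, or 10.3%, against 7.73% of all rows. They were Myl1 and Mylpf, 2 genes lower in miR-100 hearts as 4.17% of all rows were, and Mybpc3 and Tnni2, 2 genes higher in miR-100 hearts as 3.55% of all rows were. In 3 members, or 7.69%, the 4 values of each group did not overlap, against 4.54% of all rows. These were Myl3, Mybpc3 and Tnnc2. Differences, given as miR-100 minus WT on the log2 scale, were below 0 in 24 members, above 0 in 14 and 0 in 1, and 53.1% of all rows were below 0. The median difference was -0.06 over the members and -0.02 over all rows, and the median size without sign was 0.14 in both. Without miR-100 replicate 2, an array that lay apart, the Myl1 difference was -0.92, the Mybpc3 difference 0.41 and the Myl3 difference -0.31, and 0 members passed in limma. Without WT replicate 2, the other such array, Myl1 differed by -0.89, Mybpc3 by 0.44 and Myl3 by -0.31, and 0 members passed in limma. In bulk tissue, fewer muscle cells and less RNA per cell cannot be told apart.

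**Figure D1:**
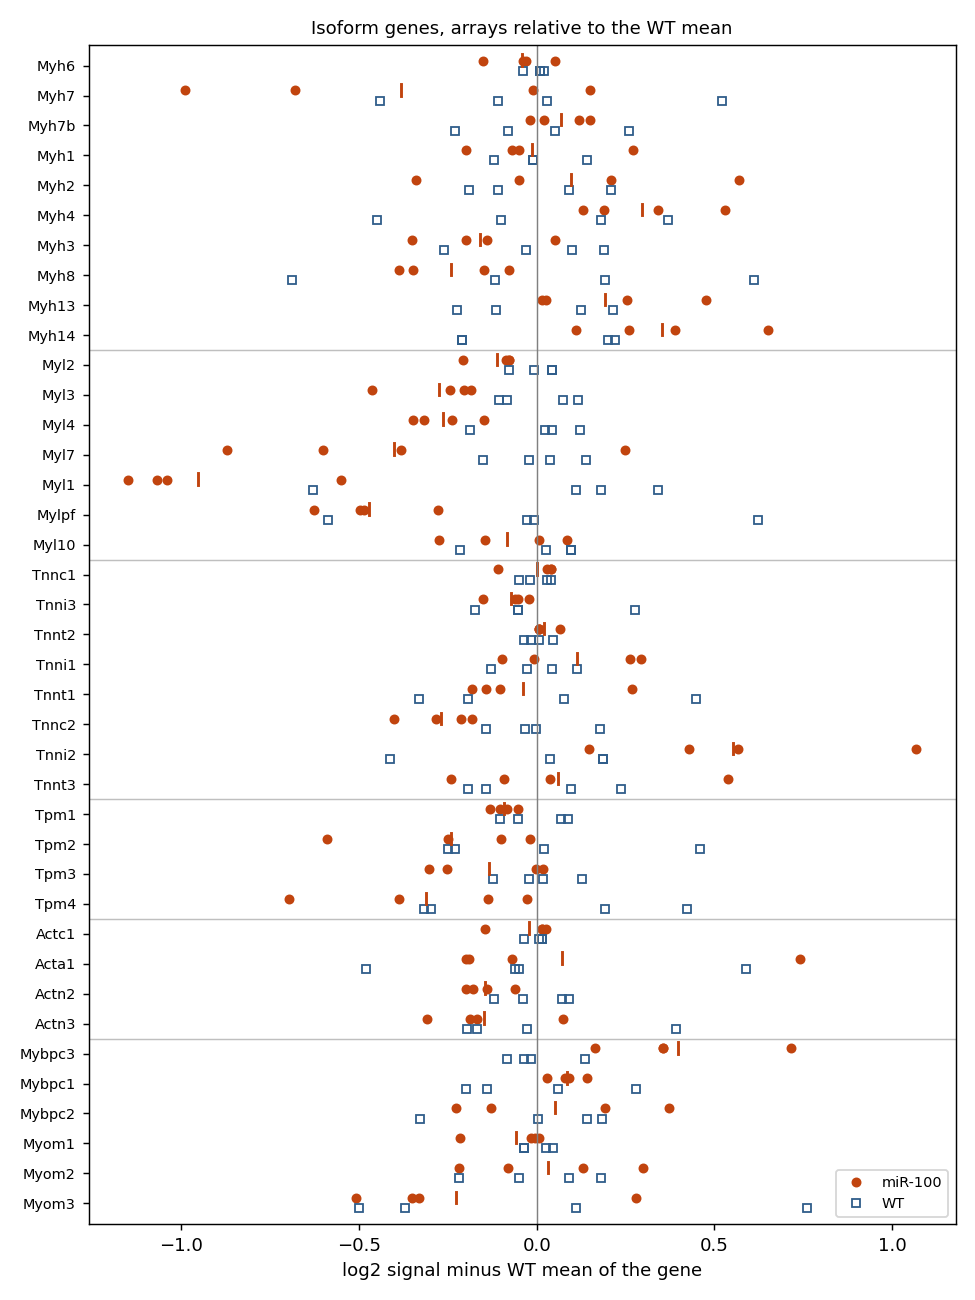
Values of the 39 genes on each array as log2 signal minus the WT mean of the gene (horizontal axis), with genes down the page in family blocks. Filled circles are the 4 miR-100 arrays, open squares the 4 WT arrays and the vertical ticks the miR-100 means. Myl1 has the lowest miR-100 mean, -0.95, and the circles of most genes lie among the squares.

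**Figure D2:**
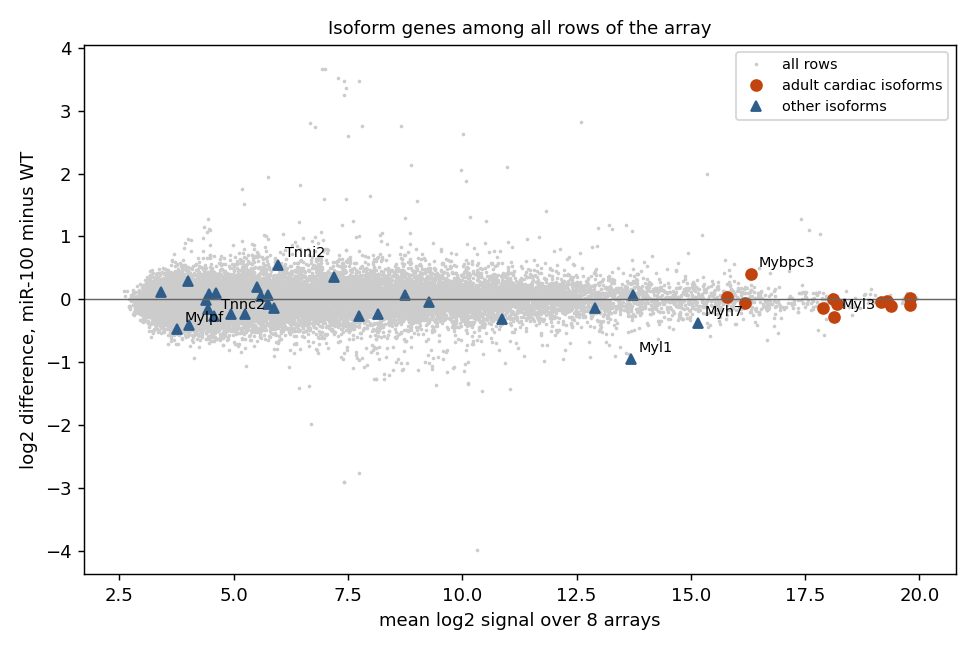
Log2 difference, miR-100 minus WT (vertical axis), against the mean log2 signal over 8 arrays (horizontal axis). Grey dots are all 22206 rows, circles the 12 adult heart isoforms and triangles the other 27. The heart isoforms sit at the bright end, with differences from -0.28 for Myl3 to 0.40 for Mybpc3.

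The myosin heavy chains, the motor proteins of the thick filament, had 0 of 10 genes past the threshold or at an unadjusted p under 0.05 in limma. Over all rows the shares were 0.14% and 7.73%. Myh6, the alpha heavy chain of the adult mouse heart, had 19.22, 19.13, 19.14 and 19.02 in miR-100 hearts, against 19.18, 19.13, 19.19 and 19.18 in WT hearts. The groups overlapped, and the difference was -0.04 (SE 0.13, limma adjusted p = 0.972) at a level close to the ceiling. Myh7, the beta heavy chain of the fetal ventricle and of slow skeletal muscle, had 15.49, 15.33, 14.66 and 14.35 in miR-100 hearts, against 15.37, 14.90, 15.23 and 15.86 in WT hearts. Of the miR-100 values, 2 lay below every WT value and 2 lay among them. Its difference was -0.38 (95% confidence interval -0.95 to 0.18, limma adjusted p = 0.797). Leaving out single arrays, the difference ran between -0.56 without miR-100 replicate 1 and -0.18 without miR-100 replicate 4. Myh7b, a slow-tonic heavy chain, lay between 8.69 and 8.86 in miR-100 hearts and between 8.48 and 8.97 in WT hearts.

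On chromosome 11, 6 heavy chain genes of skeletal muscle stand next to each other with 0 other protein-coding genes among them in the RefSeq annotation. They are Myh3 (embryonic), Myh8 (perinatal), Myh2, Myh1 and Myh4 (adult fast fibres) and Myh13 (extraocular muscle). All of their values on the 8 arrays lay between 3.4 and 5.9, and their differences between -0.24 and 0.30 (lowest limma adjusted p = 0.768). Myh6 and Myh7 likewise neighbour each other, on chromosome 14. Myh14, a heavy chain of non-muscle myosin and so not a striated isoform in spite of its place among these genes, had 7.67, 7.28, 7.41 and 7.13 in miR-100 hearts, against 6.81, 6.81, 7.24 and 7.22 in WT hearts. Its groups overlapped through miR-100 replicate 4, and the difference of 0.35 did not pass (SE 0.17, limma adjusted p = 0.675).

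The myosin light chains, which stabilise the lever arm of the myosin head and tune its motion, all had differences below 0 (7 of 7 genes). Over all rows 53.1% were below 0. The median of the light chains was -0.28, with Myl7 and Mylpf near background and Myl2 near the ceiling, and the family was not tested as a set. Myl1, the alkali light chain of fast skeletal muscle, had 13.11, 13.14, 13.03 and 13.63 in miR-100 hearts, against 13.55, 14.36, 14.29 and 14.52 in WT hearts. Only miR-100 replicate 4 and WT replicate 1 overlapped. The mean was 13.23 ± 0.27 in miR-100 hearts and 14.18 ± 0.43 in WT hearts (SD, n = 4 each), a difference of -0.95 (SE 0.21) or 0.517-fold. It missed the threshold (limma adjusted p = 0.173, exact two-sided permutation p = 0.0571), and passed with limma's intensity trend (adjusted p = 0.0402) and without WT replicate 1 (-1.16, adjusted p = 0.0387). Its highest adjusted p without an array was 0.380. The gene is at percentile 96.4 of all row means, so it was bright in these ventricles.

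Myl3, the essential light chain of the ventricle and of slow skeletal muscle, had 18.03, 18.09, 18.07 and 17.81 in miR-100 hearts, against 18.35, 18.17, 18.39 and 18.19 in WT hearts. Every miR-100 value was below every WT value. The difference of -0.28 did not pass limma (SE 0.14, adjusted p = 0.689, 0.342 with the intensity trend), and the exact two-sided permutation p of 0.0286 is the smallest that 4 against 4 arrays can give. Myl2, the ventricular regulatory light chain, had 19.34, 19.35, 19.22 and 19.35 in miR-100 hearts, against 19.47, 19.42, 19.47 and 19.35 in WT hearts, and its groups met at 19.35. Myl4, the atrial and fetal essential chain, had 7.72, 7.52, 7.63 and 7.55 in miR-100 hearts, against 7.91, 7.68, 7.89 and 7.99 in WT hearts. All miR-100 values but that of replicate 1 were below every WT value, and the difference of -0.26 did not pass (limma adjusted p = 0.699). Mylpf, the regulatory light chain of fast skeletal muscle, had 3.51, 3.37, 3.72 and 3.50 in miR-100 hearts, against 3.97, 3.41, 3.99 and 4.62 in WT hearts. This row stood at percentile 14.8, and its difference of -0.47 was -0.27 without WT replicate 4 and -0.67 without WT replicate 2. Myl10, whose role in the heart is not given here, differed by -0.08.

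The promoters of Myl1, Myl3 and Mybpc3, the brighter genes with the largest or most separate differences, and of Myh6, whose promoter drives Cre in these mice, are shown from 250 bases before to 50 after the RefSeq start, 5′ to 3′ on the strand of the gene (GRCm38.p6). Capitals mark matches to 4 motifs of muscle promoters: M-CAT (CATTCC on either strand), the MEF2 box, the CArG box on which serum response factor acts, and the TATA box (TATAAA on the strand of the gene).
Myl1, chr1:66945007-66945306, minus strand: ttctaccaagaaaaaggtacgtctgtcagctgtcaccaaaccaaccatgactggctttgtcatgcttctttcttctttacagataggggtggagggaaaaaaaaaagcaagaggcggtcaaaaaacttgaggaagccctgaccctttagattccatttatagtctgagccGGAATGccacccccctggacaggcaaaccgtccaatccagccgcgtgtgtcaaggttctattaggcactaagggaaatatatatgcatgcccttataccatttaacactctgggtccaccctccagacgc
Myl3, chr9:110763428-110763727, plus strand: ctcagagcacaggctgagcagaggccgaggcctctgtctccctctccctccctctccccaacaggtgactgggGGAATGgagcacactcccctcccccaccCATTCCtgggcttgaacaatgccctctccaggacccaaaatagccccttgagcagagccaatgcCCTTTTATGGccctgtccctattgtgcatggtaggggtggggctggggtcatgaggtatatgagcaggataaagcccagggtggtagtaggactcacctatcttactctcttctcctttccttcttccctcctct
Mybpc3, chr2:91117894-91118193, plus strand: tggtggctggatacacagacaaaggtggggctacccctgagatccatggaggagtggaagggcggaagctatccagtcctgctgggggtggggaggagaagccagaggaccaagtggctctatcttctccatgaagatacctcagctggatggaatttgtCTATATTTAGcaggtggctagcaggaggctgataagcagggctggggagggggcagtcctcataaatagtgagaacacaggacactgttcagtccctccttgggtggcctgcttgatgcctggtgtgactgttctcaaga
Myh6, chr14:54966558-54966857, minus strand: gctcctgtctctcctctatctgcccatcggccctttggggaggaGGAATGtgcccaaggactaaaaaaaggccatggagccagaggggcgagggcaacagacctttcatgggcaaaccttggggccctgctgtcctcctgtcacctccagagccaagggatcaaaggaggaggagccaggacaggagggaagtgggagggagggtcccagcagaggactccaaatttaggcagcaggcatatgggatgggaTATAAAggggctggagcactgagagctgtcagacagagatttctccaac
M-CAT letters stood in Myl1, Myl3 and Myh6, a CArG box in Myl3, a MEF2 box in Mybpc3 and the TATAAA letters in Myh6, where they lie just after the RefSeq start of this window and not before it. Promoter windows were given for 35 of the 39 genes, 42 windows in all, some of which overlap within a gene. M-CAT was in 12 of the 42 (28.6%), against 14.7% of all 32851 windows, and the CArG box in 7 (16.7%), against 1.6%. The TATA box was in 8 (19.0%), against 8.3%. The MEF2 letters were in 2 (4.8%), against 3.7%. That pattern admits any base in its middle, so these are not shares of strict MEF2 sites. These are matches of letters, with no test.

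**Figure D3:**
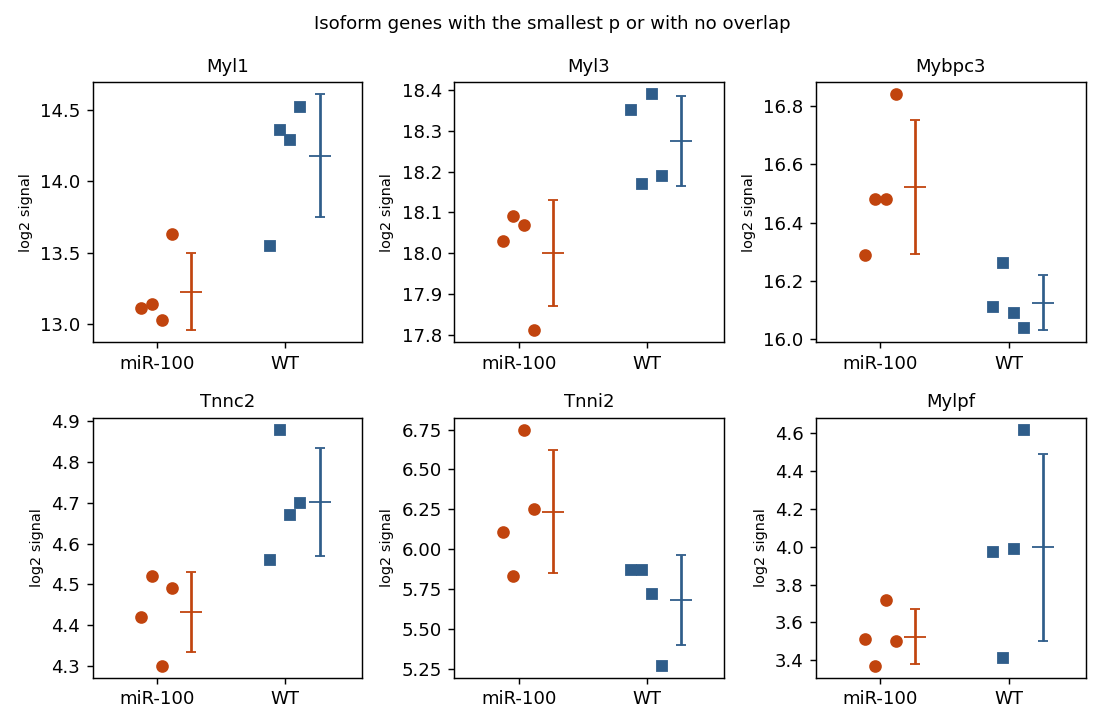
Log2 signal on each array for the 4 genes with an unadjusted p under 0.05 (Myl1, Mybpc3, Tnni2, Mylpf) and the other 2 whose groups do not overlap (Myl3, Tnnc2). Circles are miR-100 arrays and squares WT arrays, each panel with its own vertical scale, and the bars beside them are the mean ± SD (n = 4 each). Myl1 has a mean of 13.23 in miR-100 hearts and 14.18 in WT hearts.

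The troponins are the calcium switch of the thin filament, and the groups overlapped in all 3 heart isoforms. Tnnt2, the cardiac tropomyosin-binding subunit, had 19.79, 19.79, 19.79 and 19.85 in miR-100 hearts, against 19.79, 19.83, 19.77 and 19.75 in WT hearts, next to the ceiling. Tnnc1, the calcium-binding subunit of heart and slow muscle, averaged 18.11 ± 0.07 in miR-100 hearts and 18.11 ± 0.04 in WT hearts (SD, n = 4 each), with a 95% confidence interval of the difference of -0.28 to 0.28 (limma adjusted p = 1). Tnni3, the cardiac inhibitory subunit, had 18.18, 18.17, 18.21 and 18.08 in miR-100 hearts, against 18.51, 18.06, 18.18 and 18.18 in WT hearts, and all miR-100 values lay inside the WT range.

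Tnni1, the inhibitory subunit of the fetal heart and of slow skeletal muscle, had 3.66, 3.63, 3.36 and 3.27 in miR-100 hearts, against 3.48, 3.24, 3.41 and 3.34 in WT hearts. The row stood at percentile 6.4, so this fetal form was near background in both groups. Tnni2, the fast skeletal inhibitory subunit, had 6.11, 5.83, 6.75 and 6.25 in miR-100 hearts, against 5.87, 5.87, 5.72 and 5.27 in WT hearts. All miR-100 values but that of replicate 2 were above every WT value. The difference was 0.55 (SE 0.21, limma adjusted p = 0.492), and 0.38 without miR-100 replicate 3. Tnnc2, the fast skeletal calcium-binding subunit, had 4.42, 4.52, 4.30 and 4.49 in miR-100 hearts, against 4.56, 4.88, 4.67 and 4.70 in WT hearts. These groups did not overlap, yet the row stood at percentile 33.6 and the difference of -0.27 did not pass (SE 0.14, limma adjusted p = 0.694). Tnnt1 and Tnnt3, the slow and fast skeletal tropomyosin-binding subunits, differed by -0.04 and 0.06. Of the fast troponin genes Tnni2, Tnnc2 and Tnnt3, 1 was thus lower and 2 were higher by the sign of the difference alone.

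Tropomyosin lies along the actin filament, and all 4 of its genes had differences below 0, as 53.1% of all rows did. Of these 4, 0 had an unadjusted p under 0.05 in limma, against 7.73% of all rows. Tpm1, the main form of the heart, had 19.76, 19.79, 19.74 and 19.71 in miR-100 hearts, against 19.93, 19.74, 19.91 and 19.79 in WT hearts, and was the member that touched the ceiling. Its difference of -0.09 (limma adjusted p = 0.927) lay where differences can be compressed. Tpm2, a form of skeletal and smooth muscle, differed by -0.24, and Tpm3, of slow muscle and non-muscle cells, by -0.14. Tpm4, a non-muscle form, had 10.33, 11.00, 10.64 and 10.89 in miR-100 hearts, against 11.45, 10.71, 10.73 and 11.22 in WT hearts. Its difference of -0.31 was -0.17 without WT replicate 1. A single row stood for each of these genes, whose splice forms differ between tissues and were not resolved.

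The sarcomeric actins had overlapping groups. Actc1, cardiac actin, had 19.32, 19.32, 19.33 and 19.16 in miR-100 hearts, against 19.32, 19.27, 19.31 and 19.32 in WT hearts. Acta1, skeletal actin, which the fetal and the overloaded heart express, had 14.44, 13.50, 13.63 and 13.51 in miR-100 hearts, against 13.65, 13.64, 14.29 and 13.22 in WT hearts. In each group 1 array stood above the rest, and the difference was 0.07 (95% confidence interval -0.47 to 0.61, limma adjusted p = 0.976), or -0.15 without miR-100 replicate 1. The actin genes have near-identical coding sequences, so probes may not tell them fully apart. Actn2, the alpha-actinin that anchors actin at the Z-disc of heart muscle, had 17.83, 17.91, 17.79 and 17.77 in miR-100 hearts, against 17.93, 17.85, 18.06 and 18.04 in WT hearts, a difference of -0.15 (limma adjusted p = 0.873). Actn3, its fast fibre counterpart, differed by -0.15 at percentile 51.8.

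Myosin-binding protein C holds the thick filament and restrains the myosin heads. Mybpc3, its cardiac form and a gene often mutated in inherited cardiomyopathy, had 16.29, 16.48, 16.48 and 16.84 in miR-100 hearts, against 16.11, 16.26, 16.09 and 16.04 in WT hearts. Every miR-100 value was above every WT value. The mean was 16.52 ± 0.23 in miR-100 hearts and 16.13 ± 0.10 in WT hearts (SD, n = 4 each), a difference of 0.40 (SE 0.15) or 1.32-fold. It did not pass over all rows (limma adjusted p = 0.520, 0.233 with the intensity trend). The exact two-sided permutation p was 0.0286, which any 4 against 4 arrays without overlap give. Without single arrays the difference ran between 0.29 and 0.48. Mybpc1 and Mybpc2, the slow and fast skeletal forms, differed by 0.09 and 0.05 at percentiles 31.6 and 48.9. The myomesins crosslink myosin at the M-line. Myom1 lay between 16.00 and 16.22 in miR-100 hearts and between 16.18 and 16.26 in WT hearts, and Myom2, the form of the adult heart and fast fibres, differed by 0.03. Myom3, found in slower fibres, differed by -0.23 at percentile 44.5, with its highest value, 6.12, on WT replicate 2.

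The 11 members at or above percentile 99 had a median SD within groups of 0.07, against 0.25 over all rows and 0.12 over the 223 rows that are as bright. Moderation pulled their standard errors up to no less than 0.13; with the intensity trend, which fits the spread to the level, Mybpc3 and Myl3 had unadjusted p of 0.00265 and 0.00656. Neither passed over all rows with that setting.

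Whether an isoform changed relative to the adult heart isoform of its family was asked within each array, as the log2 value of the isoform minus that of the heart isoform, in 20 pairs. In 0 of the 20 did the 4 values of the groups separate. Of single rows 4.54% did, but the share among pairs of rows was not computed. After adjustment 0 pairs passed (exact two-sided permutation tests, Benjamini-Hochberg over the 20 pairs, lowest adjusted p = 0.381). With 70 assignments the smallest p is 0.0286. Myh7 minus Myh6, the classical fetal switch, averaged -4.17 ± 0.47 in miR-100 hearts and -3.83 ± 0.38 in WT hearts (SD, n = 4 each), a shift of -0.34 (exact permutation p = 0.314). Acta1 minus Actc1 shifted by 0.09 (exact permutation p = 0.8) and Tnni1 minus Tnni3 by 0.18 (exact permutation p = 0.229). In some pairs the heart isoform lay near the ceiling, as with Myh6, Myl2, Tnnt2, Tpm1 and Actc1. In some the other isoform lay near background, as with Tnni1, Myl7, Mylpf, Tnnc2 and Mybpc1. In all such pairs the shift can be compressed, by an amount not measured here, and may not show whether the ratio of the transcripts changed. Of the atrial over the ventricular light chains, Myl4 minus Myl3 shifted by 0.01 and Myl7 minus Myl2 by -0.29.

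The widest shifts, those of Myl1 and Tnni2, were of fast skeletal isoforms, and they ran in opposite directions. Myl1 minus Myl3 was -4.92, -4.95, -5.04 and -4.18 in miR-100 hearts, against -4.80, -3.81, -4.10 and -3.67 in WT hearts, a shift of -0.68 (exact permutation p = 0.0571). Tnni2 minus Tnni3 was -12.07, -12.34, -11.46 and -11.83 in miR-100 hearts, against -12.64, -12.19, -12.46 and -12.91 in WT hearts, a shift of 0.63 (exact permutation p = 0.0571). Tnnc2 minus Tnnc1 shifted by -0.27 with the same p. Wider shifts than this, at higher p, were those of Mylpf minus Myl2 (-0.36) and Myh7 minus Myh6 (-0.34), among others. In the Myl1, Tnni2 and Tnnc2 pairs the groups overlapped by a single exchange of arrays. Of their fast isoforms, Tnnc2 stood at percentile 33.6, close to background, and Tnni2 at percentile 52.6, near the median of the table. Without single arrays between 0 and 2 pairs separated: Myl1 and Tnnc2 without WT replicate 1 or miR-100 replicate 4, Tnni2 without miR-100 replicate 2, Tnni2 and Mybpc1 without WT replicate 2, Myl7 without miR-100 replicate 2 and Mybpc2 without miR-100 replicate 1, each against its heart isoform.

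**Figure D4:**
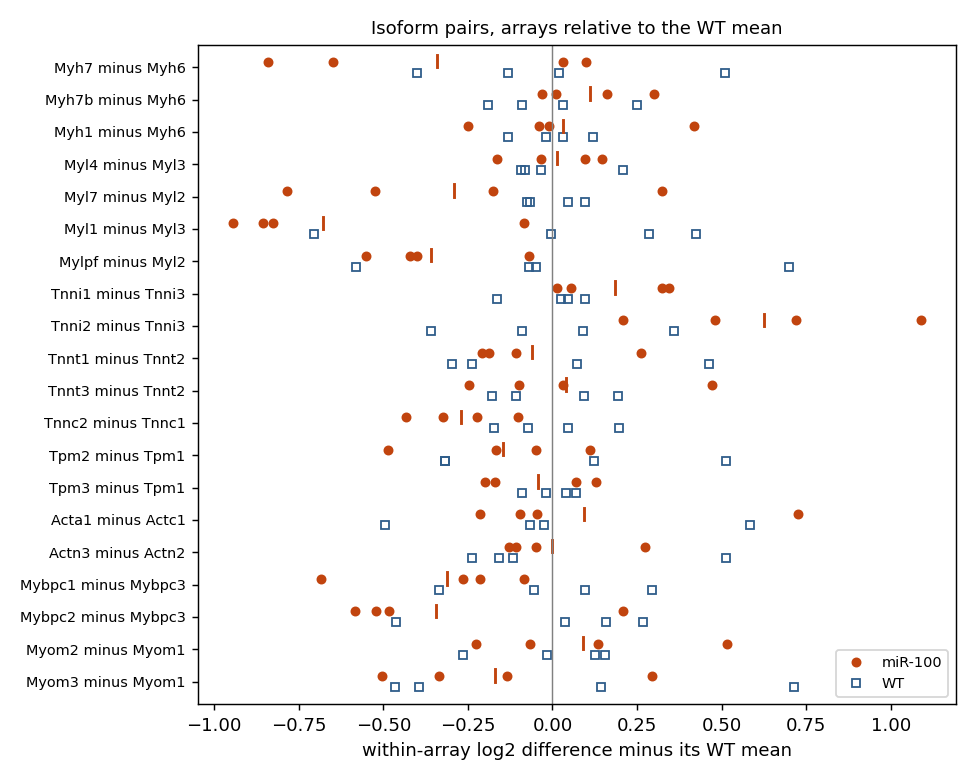
Within-array log2 difference of each isoform and the heart isoform of its family, minus its WT mean (horizontal axis), for 20 pairs down the page. Filled circles are miR-100 arrays, open squares WT arrays and ticks the miR-100 means. The circles and squares overlap in all 20 pairs, and the widest shifts are -0.68 for Myl1 minus Myl3 and 0.63 for Tnni2 minus Tnni3.

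Other genes that the loaded ventricle raises stood beside the fetal isoforms as follows. The natriuretic peptide gene Nppa had 18.76, 18.07, 18.11 and 18.48 in miR-100 hearts, against 17.53, 17.15, 17.04 and 17.54 in WT hearts, a difference of 1.04. Nppb differed by 1.40, the sarcomere stress gene Ankrd1 by 1.10 and the calcineurin-responsive gene Rcan1 by 0.58. These 4 had unadjusted p under 0.05, as 7.73% of all rows did, and their groups did not overlap, as in 4.54% of all rows. Since the genes were picked with values known, these counts are no test. Of the 4, 0 passed over all rows (lowest limma adjusted p = 0.0616, for Nppa). Nppa passed with the intensity trend (0.00488), among rows above the 50th percentile (0.0399) and with a replicate block (0.0466), and Ankrd1 with the trend (0.0118) and without WT replicate 4 (0.0427). Myh7 and Acta1, given above, had overlapping groups and differences of -0.38 and 0.07. The difference between these genes and the isoforms was not tested, since they were picked with their values known.

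**Figure D5:**
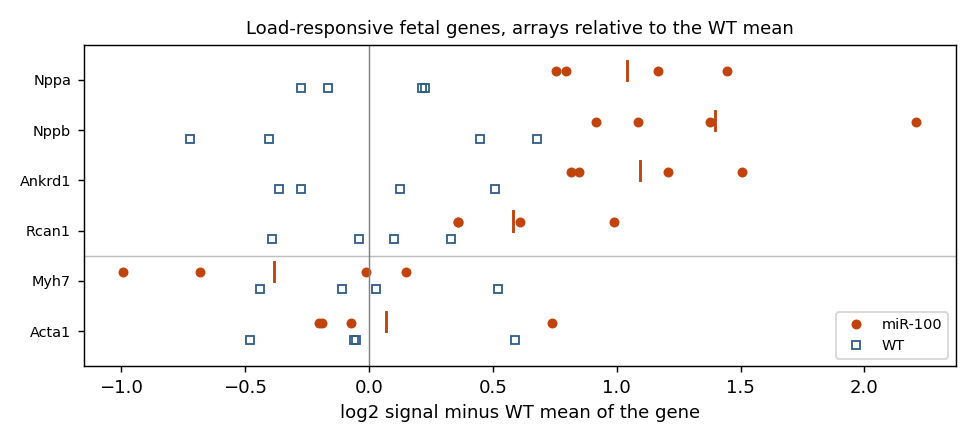
Log2 signal minus the WT mean of the gene (horizontal axis) for 4 load-responsive genes and, below the line, the fetal isoforms Myh7 and Acta1. Filled circles are miR-100 arrays, open squares WT arrays and ticks the miR-100 means. The miR-100 means are 1.04 for Nppa and 1.40 for Nppb, against -0.38 for Myh7 and 0.07 for Acta1.

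Of 52 measured genes of the Z-disc, titin system, thin filament caps and sarcomere assembly, 0 passed over all rows in limma, with 3 higher and 3 lower at an unadjusted p under 0.05, where 3.55% of all rows were higher and 4.17% lower, and a median difference of 0.01. The lowest p was that of Hsp90aa1, a chaperone that folds myosin, at 13.27, 13.29, 13.39 and 13.09 in miR-100 hearts, against 12.55, 11.75, 12.53 and 12.88 in WT hearts. Its groups did not overlap, and the difference of 0.83 did not pass (limma adjusted p = 0.222). Of 40 transcription and splicing regulators of muscle isoforms, 0 passed in limma, with 0 higher and 2 lower at an unadjusted p under 0.05, against the same 3.55% and 4.17% of all rows. Tbx5, a T-box factor of the heart, had the lowest p, with 8.83, 8.63, 8.57 and 8.57 in miR-100 hearts, against 9.16, 9.35, 8.86 and 9.01 in WT hearts, a difference of -0.45 (limma adjusted p = 0.425).

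Markers of other tissues had 0 genes past the threshold in limma. Of 20 skeletal muscle markers 0 passed in limma, with 2 higher and 1 lower at an unadjusted p under 0.05 (3.55% and 4.17% of all rows), and the mean over the list lay between 7.18 and 7.39 in miR-100 hearts and between 7.16 and 7.30 in WT hearts. Of the 20, 9 stood at or below the median of the table. Ckm, muscle creatine kinase, stood at percentile 96.9, and the myogenic factor Myod1 at percentile 1.3, with Myod1 between 2.91 and 3.39 in miR-100 hearts and between 2.85 and 3.15 in WT hearts. Casq1, skeletal calsequestrin, had the lowest p and differed by 0.89. Its groups did not overlap, as in 4.54% of all rows, and the difference did not pass (SE 0.215, limma adjusted p = 0.203). Atp2a1, the calcium pump of fast fibres, differed by 0.35 at percentile 9.3, and Myot, the Z-disc protein myotilin, by -0.69 at percentile 89.8. Of 14 atrial markers, among them Myl4 and Myl7, 0 passed in limma, with 1 higher and 2 lower at an unadjusted p under 0.05 (3.55% and 4.17% of all rows). Nppa was the higher one, at 1.04, and Tbx5 and the potassium channel gene Kcnj3 the lower ones, at -0.45 and -0.44. Of the 14, 6 stood at or below the median of the table. The means over the list were 8.53 to 8.57 in miR-100 hearts and 8.54 to 8.61 in WT hearts. Sln, atrial sarcolipin, differed by -0.01.

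Among 11 smooth muscle markers 0 passed in limma, with 1 higher and 1 lower at an unadjusted p under 0.05 (3.55% and 4.17% of all rows). Their mean lay between 8.44 and 8.87 in miR-100 hearts and between 8.55 and 8.84 in WT hearts. Acta2, smooth muscle actin, which fetal heart muscle also makes, had 13.74, 14.01, 14.66 and 12.94 in miR-100 hearts, against 12.86, 12.71, 12.72 and 12.61 in WT hearts. Its groups did not overlap, and the difference of 1.11 did not pass (SE 0.28, limma adjusted p = 0.203), though it did without miR-100 replicate 4 (1.41, adjusted p = 0.0442). Lmod1, of the same list, went the other way without overlap, with a difference of -0.405 (limma adjusted p = 0.577). Myh11, the smooth muscle heavy chain, differed by -0.06 and Tagln by -0.19. Of 9 genes of non-muscle actomyosin 0 passed, with Myl6b lowest in p at -0.32. Lists of fibroblast, endothelial and macrophage genes, of 6, 6 and 5 measured genes, had medians of -0.01, -0.09 and 0.03. They had 0 members at an unadjusted p under 0.05 in limma, against 7.73% of all rows, and lists this short cannot tell 0 from that share. Their genes with the lowest p were Col1a2 (-0.37), Fabp4 (-0.21) and Mrc1 (-0.22). The red cell list rested on 1 gene, Alas2 (-0.20), and the 3 brown fat markers had a median of -0.03, with Cidea lowest in p at -0.26. The part of other cells in the isoform values was not tested.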

How the data were processed

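Left ventricular RNA of 8 mice was measured on 8 arrays, 1 per mouse. The authors deposited log2 signals per transcript cluster, and the submitters' processing notes name Transcriptome Analysis Console 4.0 as the tool. Summarization, normalization and genome build are not given in the sources used here. Near equal medians show that arrays were brought to a common scale.

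A linear model was run on all 22206 rows with limma 3.58.1 under R 4.3.3 (lmFit and eBayes, no covariate, filter or transformation), with Benjamini-Hochberg adjustment over all rows and a threshold of 0.05. SE and intervals are moderated. The fit was tested first on simulated data. Platform annotation gave 1 symbol for 19572 rows and none for 2634, and all 39 members kept their symbol through RefSeq's Entrez numbers. Gene pairs were compared with exact permutation tests. The arrays' number limits precision.

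The members, families, lists and pairs were chosen with earlier results of these data known. Named are all members, and from each other list the gene with the lowest p and those past the threshold. Genes beyond this rule, such as Nppb, Ankrd1, Rcan1, Lmod1, Myh11, Tagln, Sln, Mybphl, Myod1, Ckm, Kcnj3, Myot and Atp2a1, were named with values seen. Same-numbered arrays did not deviate together (correlations -0.060 to 0.066). This gave no sign that the numbers pair mice, but cannot exclude it, since paired mice need not deviate together. Alternatives left out single arrays, dropped rows below percentile 25 or 50 or without a symbol, centred or quantile normalized the arrays, weighted them, added a replicate block, let the prior spread follow intensity or be robust, used exact tests, or moved the threshold to 0.1.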

Additional observations from a re-analysis of the deposited data

Results flagged for a closer look

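In 10 of 118 groups of 4 arrays, over the 39 genes and 20 pairs in both groups, Dixon's test at its 95% critical value set 1 array apart from the other 3. The test sets the gap against the range of the 4 values, so rows with little spread can be flagged for small gaps. Chance flags about 1 in 20 groups, a rate not checked for rounded values or for rows near the ceiling. The arrays were as follows, all on the log2 scale. On miR-100 replicate 4, Tnnc1 had 18.00 against 18.14 to 18.15 on the other miR-100 arrays, and Actc1 had 19.16 against 19.32 to 19.33. On the same array Tnnt2 had 19.85 against 19.79 on each of the others, and Myl1 minus Myl3 was -4.18 against -5.04 to -4.92. Myl2 had 19.22 on miR-100 replicate 3 against 19.34 to 19.35, and Myom1 had 16.00 on miR-100 replicate 2 against 16.20 to 16.22. On miR-100 replicate 1, Acta1 had 14.44 against 13.50 to 13.63, and Mybpc2 minus Mybpc3 was -10.34 against -11.13 to -11.03. On WT replicate 2, Myh6 had 19.13 against 19.18 to 19.19 on the other WT arrays, and Actn3 minus Actn2 was -11.50 against -12.25 to -12.13.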

How the results depend on the processing

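Of 646 values recomputed for the 39 genes over 17 alternative settings, 644 stayed on the same side of the threshold, 2 crossed it and 0 with a difference larger than its SE turned sign. Both that crossed were Myl1, and the count of members past the threshold was then 1, with the intensity trend and without WT replicate 1; it ran between 0 and 1 without single arrays and was 0 at an adjusted p of 0.1. The count at an unadjusted p under 0.05 ran between 3 and 5. The median difference ran between -0.096 and -0.036 without single arrays. Among the other listed genes 2 passed with the intensity trend, 1 among rows above the 50th percentile, 1 with a replicate block, and 0 to 1 without single arrays. At an adjusted p of 0.1, Nppa (limma adjusted p = 0.0616) and Ankrd1 (limma adjusted p = 0.0787) passed in the main fit. With the replicate block 0 isoform members passed, as in the fit without it, and 4 had an unadjusted p under 0.05. Pairs that separated ran between 0 and 2 without single arrays, and all 216 recomputed pair shifts moved by less than the SD. The replicate block was not run for the pairs. Each gene had 1 row, so no other row could be tried. Dim rows and the ceiling limit what these arrays can show.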
